A study of Caenorhabditis elegans with 2 samples.

Results

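The genes described here are the neuropeptide and insulin-like genes of Caenorhabditis elegans, taken as all protein-coding genes whose symbol starts with flp-, nlp- or ins- in the Ensembl annotation of the WBcel235 assembly. They number 140 of 19973 nuclear protein-coding genes, with 31 flp, 71 nlp and 38 ins genes, and no measured value was used to choose them. RNT-1, the RUNX transcription factor of the worm, was mapped on chromatin by chromatin immunoprecipitation and sequencing (ChIP-seq) in 2 biological replicates of a single group. Both replicates were whole hermaphrodite late embryos of strain OP462, collected 5 h after synchronization by egg bleaching. Every animal carried the unc-119(tm4063) mutation and the transgene array wgIs462, which encodes RNT-1 with GFP and FLAG at its C-terminus, and the sample notes name an antibody against GFP. The 2 samples form 1 group, so there is no contrast between conditions and no test, and values are given beside those of all protein-coding genes. The promoter that drives the tagged protein is not given in the sources used here. Because whole embryos were used, a site held by RNT-1 in a small share of the cells and a site held weakly in many cells cannot be told apart.

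The 3 symbol classes encode secreted peptides. The flp genes encode precursors of FMRFamide-related peptides, which are cut from larger proteins, amidated, packed in dense core vesicles and released mostly by neurons to act on G protein-coupled receptors. The nlp genes encode precursors of other neuropeptide-like proteins, and some of them are antimicrobial peptides of the epidermis. The ins genes encode insulin-like peptides, which act as agonists or antagonists of the single insulin receptor of the worm, DAF-2, in dauer entry, growth and lifespan. RNT-1 itself is best known from the epidermis, where it acts in the proliferation of the seam cells. RUNX proteins bind DNA through the Runt domain, which recognises a short core, searched here as TGTGGT or TGCGGT on either strand.

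Sequence is shown for the 2 peptide genes that had a summit at the start in the list made from both replicates and for flp-12, which was added after its values were seen because its summit region holds the RUNX core. A summit is the position within a region that the authors deposited as its highest point. The sequences come from the RefSeq copy of assembly WBcel235 (ce11) and run 5′ to 3′ in the direction of the peptide gene. That of ins-39 covers chrX:1344923-1345123 on the minus strand, that of flp-23 covers chrIII:8650337-8650537 on the plus strand, and that of flp-12 covers chrX:4592507-4592607 on the minus strand. Capitals mark a tRNA gene at flp-23 and the word TGTGGT at flp-12, and ins-39 has no capitals because neither the RUNX core nor GAGAGA occurs there.
ins-39: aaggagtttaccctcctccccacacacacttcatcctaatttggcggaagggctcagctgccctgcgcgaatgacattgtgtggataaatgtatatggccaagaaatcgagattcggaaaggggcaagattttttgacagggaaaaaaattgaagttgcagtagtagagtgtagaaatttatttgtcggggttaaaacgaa
flp-23: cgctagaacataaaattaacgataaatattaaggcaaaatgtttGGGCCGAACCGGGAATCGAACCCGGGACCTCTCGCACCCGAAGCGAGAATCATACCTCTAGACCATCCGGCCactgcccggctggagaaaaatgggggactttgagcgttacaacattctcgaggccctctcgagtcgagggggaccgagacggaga
flp-12: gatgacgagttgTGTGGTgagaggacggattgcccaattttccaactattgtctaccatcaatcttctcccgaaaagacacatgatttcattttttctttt

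Few of the peptide genes had RNT-1 at their start by the strictest of the deposited lists. That list was thresholded by the irreproducible discovery rate (IDR), a measure of agreement between replicates, and held 1923 nuclear peaks. A gene was counted when a summit fell in a start window, which reached 1000 bp upstream and 200 bp downstream of an annotated start of the gene. By this rule 2 of the 140 peptide genes, ins-39 and flp-23, had an IDR summit, which is 1.43% with a 95% Wilson interval of 0.393 to 5.06%. Over all protein-coding genes the share was 6.75%, above the upper bound for the peptide genes. Among flp genes the count was 1 of 31 (3.23%, interval 0.572 to 16.2%) and among ins genes 1 of 38 (2.63%, interval 0.466 to 13.5%). None of the 71 nlp genes had one, which allows a share of up to 5.13%. These intervals cover counting error only, and genes are not replicates.

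The count rests on few genes and on the window. It was 1 when the window was narrowed to 500 bp upstream and 100 bp downstream, and 5 when each IDR summit was given to the nearest protein-coding start at any distance.

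**Figure D1:**
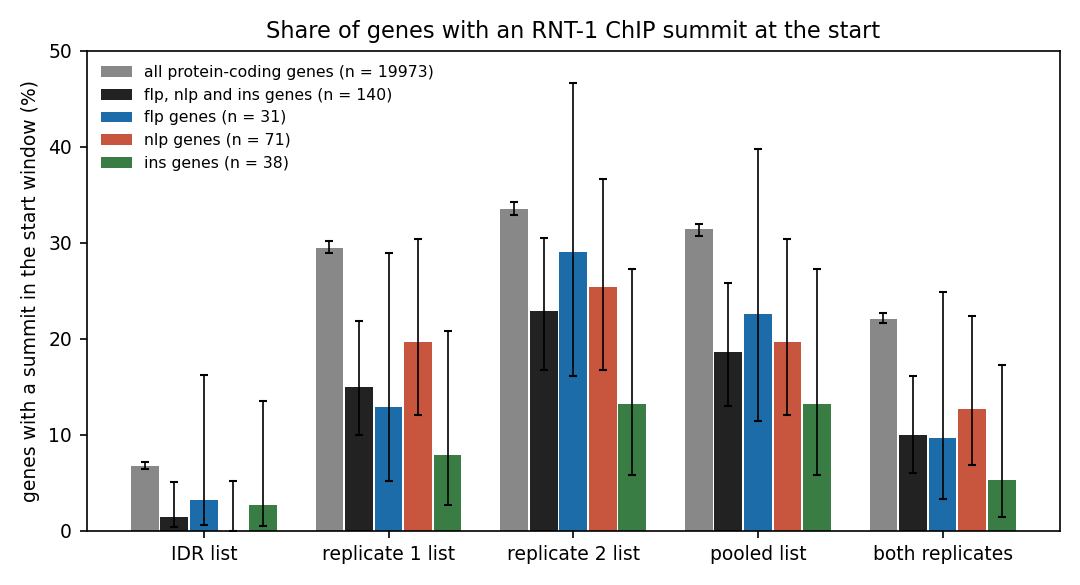
Share of genes (percent, vertical axis) with a summit in the start window, for the IDR list, each replicate list, the pooled list and both replicate lists together. Bars are shares for all protein-coding genes, all 140 peptide genes and the flp, nlp and ins genes, and error bars are 95% Wilson intervals; the peptide genes as a whole are at 1.43% against 6.75% in the IDR list and at 18.6% against 31.4% in the pooled list.

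The strongest region at a peptide gene was that of ins-39 (WBGene00017668), an insulin-like gene on the minus strand of chromosome X from 1343758 to 1344421. Its signal, the score the authors deposited for each region, was 113 in replicate 1 and 73.5 in replicate 2. Signal scales may differ between lists, so ranks are given as well, and the ins-39 region ranked 463 of 18427 in replicate 1 and 507 of 21390 in replicate 2. Both replicates therefore placed it high. In the list called on both replicates together (the pooled list) and in the IDR list its signal was 187 and its rank 463. The region spans chrX:1344805-1345240 with the summit at 1345023, 602 bp upstream of the ins-39 start. The summit lay 605 bp upstream in replicate 1 and 602 bp upstream in replicate 2, a few bases apart.

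The ins-39 peak had no other annotated start, coding or non-coding, in reach of the start window rule, with piRNA genes left out of the search. The next protein-coding gene upstream of ins-39 is 13349 bp away. In the printed sequence around the summit neither form of the RUNX core was found, and the nearest copy lay 294 bp from the summit. A copy of TGCGGT was present elsewhere in the start window of the gene.

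The flp-23 gene (WBGene00017693), a FMRFamide-related precursor gene on the plus strand of chromosome III from 8650767 to 8652194, had the weaker of the 2 IDR peaks. Its signal was 76.1 in replicate 1 and 40.5 in replicate 2. Its rank was 1215 in replicate 1 and 1825 in replicate 2, so both replicates placed it among their top 1931 regions, the number of peaks in the IDR list. The pooled and IDR signal was 119 at rank 1284. The peak spans chrIII:8650219-8650654 with the summit at 8650437, 330 bp upstream of the flp-23 start.

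That summit lies inside a tRNA gene. F22B7.t5 (WBGene00023002), a gene for a proline tRNA on the minus strand from 8650381 to 8650452, has its own start 15 bp from the summit, and 314 bp separate it from flp-23. The 72 bases in capitals in the flp-23 sequence above are this tRNA gene, read here on the strand opposite to its transcription. Across the nuclear IDR list 142 of 1923 summits lay at a tRNA start by the same window. Of the 1349 protein-coding genes with an IDR summit, 41 (3.04%) had only summits that also lay at a tRNA start, and flp-23 was among them. With all such summits left out, a setting chosen after the data were seen, the count of peptide genes was 1 of 140 (0.714%), against 6.55% of all protein-coding genes. Whether the flp-23 peak belongs to the tRNA gene or to flp-23 was not tested. A second and weaker pooled region, with a signal of 40.2, had its summit 117 bp upstream of flp-23.

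**Figure D2:**
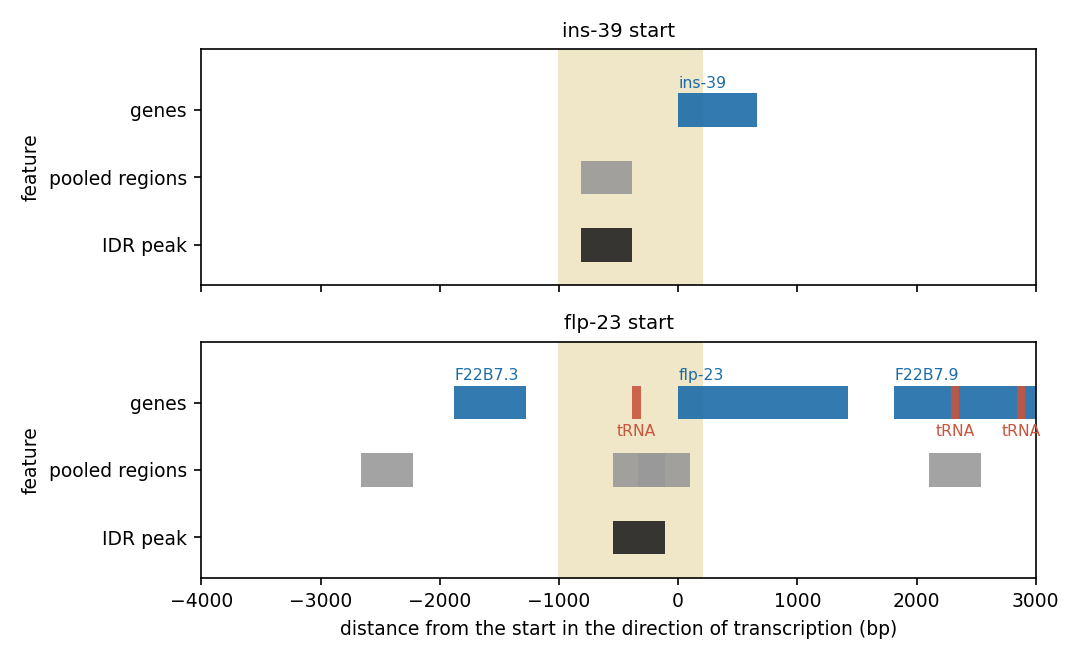
Maps of the ins-39 and flp-23 starts, with distance from the start in the direction of transcription on the horizontal axis (bp) and rows for genes (tRNA genes in red), pooled regions and IDR peaks. The shaded band is the start window from 1000 bp upstream to 200 bp downstream; the ins-39 peak stands alone 602 bp upstream of its gene, while the flp-23 peak covers a tRNA gene.

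The lists that keep background regions also gave the peptide genes a lower share than all genes. In the pooled list, which holds 19793 regions and does not by itself call binding, 26 peptide genes (18.6%, interval 13.0 to 25.8%) had a summit in the start window, against 31.4% of all protein-coding genes. The flp genes had 7 of 31 (22.6%), the nlp genes 14 of 71 (19.7%) and the ins genes 5 of 38 (13.2%). In the replicate 1 list 21 peptide genes (15.0%) had a summit, against 29.5% of all genes. In the replicate 2 list 32 (22.9%) did, against 33.5%. Both replicate lists held a region for 14 peptide genes (10.0%, interval 6.05 to 16.1%), against 22.1%. Here and below, a region in both replicates means a summit in the start window in each list, not necessarily at the same place. The peptide genes were thus below all genes in each replicate as well as in the pooled list, and the ins genes had the lowest share of the 3 classes in the pooled list and in both replicate lists. The intervals of the 3 classes overlap in all of these lists.

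A region in any of the pooled and replicate lists was present at 40 peptide genes (28.6%), against 41.9% of all protein-coding genes. The other 100 peptide genes had no summit in the start window in any deposited ce11 list. Of the 26 with a pooled region, 12 also had a region in both replicates, 4 in replicate 1 only, 9 in replicate 2 only and 1, ins-33, in neither. Over all genes with a pooled region, 4285 of 6268 had a region in both replicates. A further 14 of the 140 peptide genes had a region in a replicate list and none in the pooled list. Over all protein-coding genes this held for 2098 of 19973, a similar share. Of the 14, nlp-31 and nlp-53 had a summit in the start window in both replicate lists. At nlp-31 the summits did not coincide, with that of replicate 1 236 bp upstream of a start and that of replicate 2 158 bp downstream. At nlp-53 they lay 60 bp and 117 bp downstream.

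The pooled regions at peptide genes were mostly weak ones. The highest pooled signal was 187, the lowest 29.9 and the median 39.2 over 26 genes, while the median over all 6268 protein-coding genes with a pooled region was 50.3. When the whole pooled list was cut into 4 parts of equal size from the highest signal down, 5, 7, 10 and 4 of the 26 fell in these parts in that order. The part of highest signal therefore held 19.2% of the peptide genes with a pooled region, against 42.9% over all genes. Below the 2 genes with an IDR summit, the next signal was 63.3, at nlp-25, while the lowest signal of an IDR peak was 95.8.

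**Figure D3:**
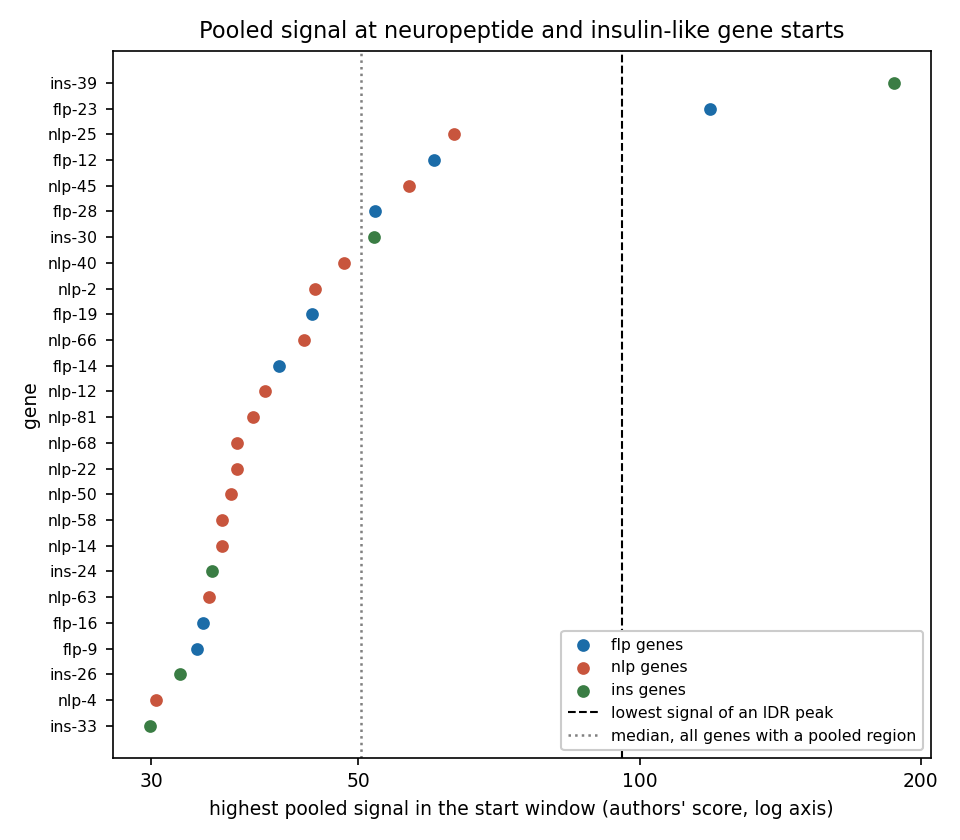
Highest pooled signal in the start window (authors' score, log axis) for each of the 26 peptide genes with a pooled region, coloured by class. The dashed line is the lowest signal of an IDR peak, 95.8, which ins-39 and flp-23 exceed, and the dotted line is the median of all protein-coding genes with a pooled region, 50.3; 19 of the 26 genes lie below it.

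The 10 peptide genes that came next in pooled signal were nlp-25, flp-12, nlp-45, flp-28, ins-30, nlp-40, nlp-2, flp-19, nlp-66 and flp-14, with pooled signals from 63.3 down to 41.1 and pooled ranks from 3988 to 9861. For nlp-25 the signal was 49.7 (rank 2733) in replicate 1 and 17.3 (rank 9470) in replicate 2. These best replicate summits were 391 bp and 357 bp upstream of the start. The pooled list holds 2 regions there, a stronger one with its summit 539 bp upstream and a second, of signal 45.9 and rank 7678, with its summit 322 bp upstream, which is nearer to the replicate summits. The stronger pooled summit lies in a coding exon of kcnl-1, a potassium channel gene, and the 101 bases around it had a G+C content of 67.3%. For flp-12, a FMRFamide-related precursor gene, the signal was 35.8 (rank 5540) in replicate 1 and 27.4 (rank 3625) in replicate 2. This region lies between genes, 207 bp upstream of the start in the pooled list and 191 bp upstream in replicate 2, and it is the one whose printed sequence holds TGTGGT. The replicates placed it closer in rank than they placed nlp-25.

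The nlp-45 region, with signals of 34.6 and 19.9 in replicates 1 and 2, had its pooled summit 28 bp upstream of the start, inside an intron of T01B6.1. The flp-28 region, with 40.7 and 16.2, had its pooled summit 138 bp upstream, inside an intron of W07E11.1. Its replicate summits were 178 bp and 63 bp upstream, so they did not coincide. The ins-30 region, with 25.6 and 25.4, lay 78 bp downstream of the start in the gene's own coding sequence, at rank 12586 in replicate 1 and 4159 in replicate 2. Unlike ins-39, it was ranked far apart by the 2 replicates.

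The nlp-40 gene encodes a peptide that the intestine secretes to trigger the expulsion step of defecation. Its region had a signal of 30.7 (rank 8052) in replicate 1 and 17.6 (rank 9190) in replicate 2, with the pooled summit 539 bp upstream of a start and within an intron of the gene. At nlp-2 the signals were 27.6 and 15.0 with the summit 33 bp downstream, and at nlp-66 they were 30.9 and 15.9 with the summit 73 bp downstream. The regions at flp-19 and flp-14 were missing from the replicate 1 list and had signals of 24.9 and 19.9 in replicate 2. None of these 10 genes was among the top 1931 regions of either replicate.

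**Figure D4:**
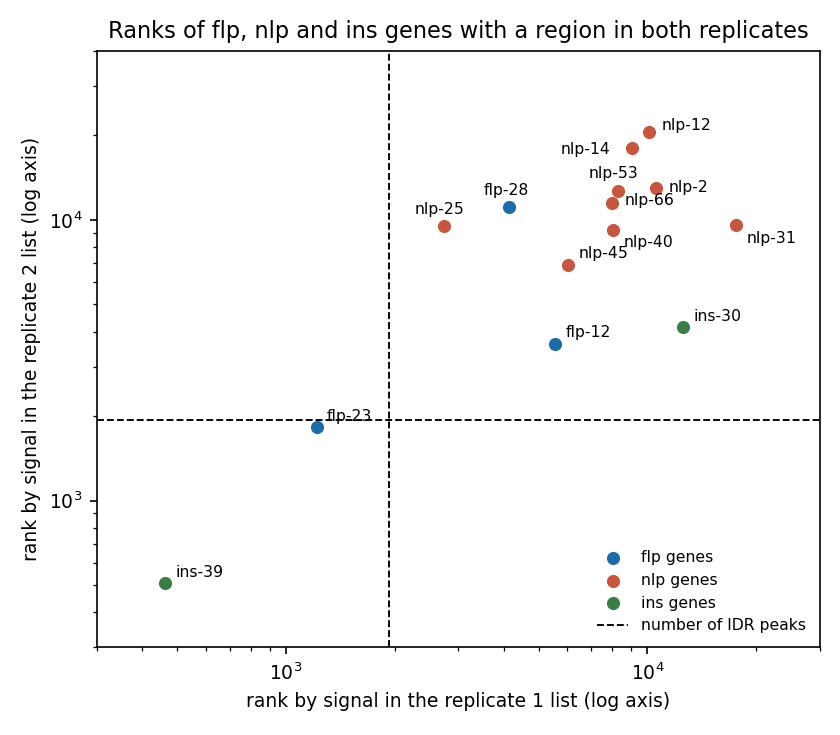
Rank by signal in the replicate 1 list (horizontal, log axis) and in the replicate 2 list (vertical, log axis) for the 14 peptide genes with a region in both, coloured by class, where a low rank is a strong region. The best region of each list in the start window was taken, and the 2 summits need not coincide. The dashed lines stand at 1931, the number of IDR peaks; ins-39 and flp-23 lie below both lines and the other 12 genes above both.

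Across the 14 peptide genes with a region in both replicates the Spearman correlation of the replicate signals was 0.56, against 0.75 across 4421 protein-coding genes. Both values are descriptions across genes that share the same 2 libraries, and they carry no test. They use the highest signal of each list in the start window, and the 2 summits need not coincide, as at nlp-31, nlp-14 and flp-28. Of the 26 best pooled summits at peptide genes, 13 lay between protein-coding genes, 6 (23.1%) in a coding exon, 5 (19.2%) in an intron and 2 (7.69%) in a UTR. Over all 6268 genes with a pooled region, 63.5% lay between protein-coding genes and 12.3% in a coding exon. Some of these exons belong to another gene, as at nlp-12 (emr-1, which encodes emerin) and nlp-22 (nlp-23).

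Single genes with a known role are given next as examples, chosen by name, and no statement about their roles as groups is drawn from them. Over all peptide genes 114 of 140 had no pooled region at the start. For flp-11, released by the sleep-active neuron RIS, the nearest pooled summit was 11025 bp away and the nearest IDR summit 26213 bp away. For flp-13, released by the ALA neuron in stress-induced sleep, these distances were 1195 bp and 25370 bp, and for nlp-8, also of ALA, 8676 bp and 29119 bp. The sleep-promoting gene nlp-22 did have a pooled region, with a signal of 37.1, and its signal in replicate 2 was 17.3 while replicate 1 listed none. For nlp-14, another gene expressed in ALA and added after its values were seen, the signal was 35.7 in the pooled list and 29.3 in replicate 1. These summits lay 147 bp and 151 bp downstream of a start. The replicate 2 list had a signal of 12.8 at another place, 183 bp upstream, at rank 18016.

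For flp-1, which acts in locomotion, the nearest pooled summit was 6187 bp away and the nearest IDR summit 23042 bp away. For flp-18, a ligand of NPR-4 and NPR-5, the distances were 3063 bp and 17188 bp, and for flp-21, a ligand of NPR-1, they were 5853 bp and 17071 bp. The gene nlp-12, whose cholecystokinin-like peptide is released by the DVA neuron, had a pooled region of signal 39.7 with signals of 28.1 in replicate 1 and 11.9 in replicate 2. That region ranked 20538 in replicate 2, near the end of the list.

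The insulin-like genes ins-1, ins-4, ins-6, ins-7, ins-18 and daf-28, known from dauer and lifespan work, had no pooled region at the start. The agonist genes ins-4 and ins-6 had their nearest IDR summit 22552 bp and 18482 bp away, and their nearest pooled summit 2400 bp and 794 bp away. For ins-7, an agonist known from lifespan work, the nearest pooled summit was 8037 bp away. For ins-1, described as an antagonist of DAF-2, it was 5284 bp away, and for ins-18, also described as one, 8723 bp. A region of signal 17.1 at ins-18 was listed in replicate 2 alone. The agonist gene daf-28, an insulin-like gene without the ins- prefix, likewise had a region in replicate 2 alone, with a signal of 18.6, and its nearest IDR summit was 82303 bp away.

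Peptide genes that lie side by side on a chromosome were scored as runs, with at most 1 other gene between neighbours. There were 12 runs with 41 genes in all, and none of these genes had an IDR summit, where the share was 1.43% over all peptide genes and 6.75% over all protein-coding genes. With so few genes a count of 0 is near the share of the peptide genes as a whole. The 6 epidermal and related genes nlp-34, nlp-31, nlp-30, nlp-29, nlp-28 and nlp-27 on chromosome V, of which nlp-29 is known for its induction by wounding and fungal infection, had no pooled region at the start. For nlp-29 the nearest pooled summit was 1225 bp away. These genes lay far from any IDR summit, at 168152 to 178396 bp, and nlp-34, nlp-31 and nlp-30 had the longest distances of all peptide genes (178396, 177475 and 175550 bp). In replicate 1 a region of signal 21.9 and rank 17577 was shared by the divergent starts of nlp-31 and nlp-34, close to the lowest signal of that list, 21.4. The run of ins-2, ins-3, ins-4, ins-5, ins-6 and ins-20 on chromosome II had no pooled region either, at 8074 to 30394 bp from an IDR summit. The run of 7 ins genes from ins-28 to ins-26 on chromosome I had 3 pooled regions, and that of nlp-45, nlp-22, nlp-23 and nlp-2 on chromosome X also had 3, against 31.4% of all protein-coding genes, and runs of this size are too small to set apart from that share.

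The genes next to the peptide genes were closer to the genome-wide share. Of 226 protein-coding genes that neighbour a peptide gene on either side and are not peptide genes themselves, 13 (5.75%, interval 3.39 to 9.59%) had an IDR summit and 67 (29.6%) a pooled region. Among the 13 were rps-1, a ribosomal protein gene with a signal of 284, set-16, a histone methyltransferase gene with 214, and daf-19, the gene of an RFX transcription factor, with 169. The difference between the shares of the peptide genes and of their neighbours was not tested.

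The peptide genes were spread over all 6 chromosomes, from 17 on III to 34 on X. A pooled region was present at 7 of 19 on chromosome I (36.8%, against 39.7% of all genes there), at 9 of 34 on X (26.5%, against 34.8%) and at 2 of 23 on V (8.70%, against 22.1%). The peptide genes were below all genes of the same chromosome in these 3 cases and also on II, III and IV. The median distance from a start to the nearest IDR summit on either side was 23138 bp for peptide genes and 21470 bp for all protein-coding genes. Within 4000 bp of the start an IDR summit was present at 8 peptide genes (5.71%), against 15.9% of all genes, while within 32000 bp the shares were 63.6% and 62.9%. By class, the share within 4000 bp was 3.23% for flp, 2.82% for nlp and 13.2% for ins genes, and within 2000 bp the ins genes were at 10.5%, close to the 10.3% of all genes. The free space upstream, to the next protein-coding gene, had a median of 2522 bp for peptide genes and 940 bp for all genes, and 14 peptide genes (10.0%) shared their start window with another coding start, against 22.8%. Among genes with at least 1000 bp free upstream, 2 of 105 peptide genes (1.90%, interval 0.524 to 6.68%) had an IDR summit, against 5.97% of all such genes.

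**Figure D5:**
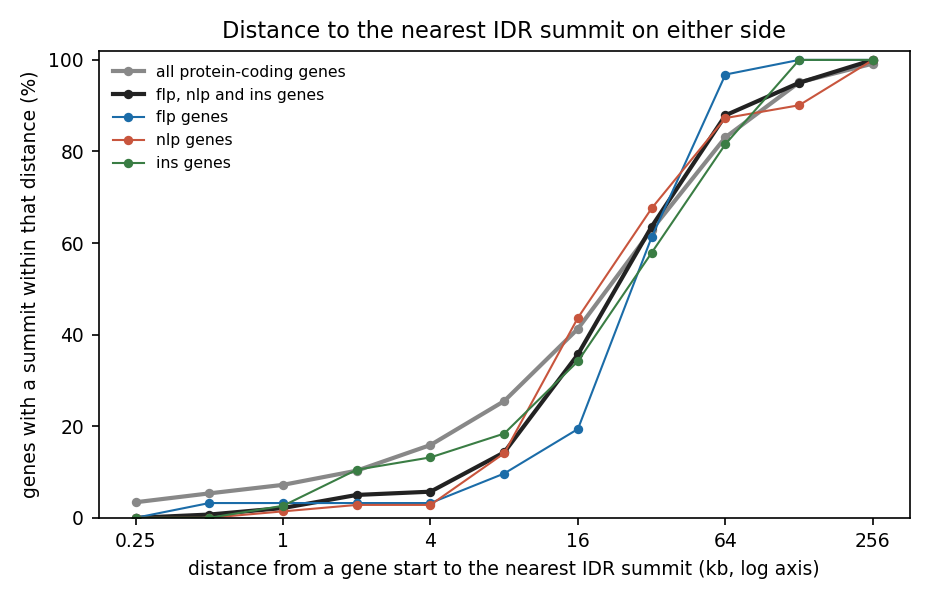
Share of genes (percent, vertical axis) with an IDR summit within a given distance of the start on either side (kb, log axis), for all protein-coding genes, all peptide genes and the 3 classes. The peptide genes are at 5.71% against 15.9% within 4 kb and at 63.6% against 62.9% within 32 kb.

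With the window widened to 5000 bp upstream and 500 bp downstream, a setting chosen after the data were seen, 3 peptide genes (2.14%) had an IDR summit, against 14.1% of all genes. The added gene was nlp-76, and the summit 1375 bp upstream of it, with a signal of 223, lies at a tRNA gene. No IDR summit lay inside a peptide gene, which allows up to 2.67%, against 2.43% of all protein-coding genes. A pooled summit lay inside 26 peptide genes (18.6%), against 31.3% of all genes, a count made apart from that of the 26 genes with a pooled region at the start. The median gene length was 888 bp for peptide genes and 2027 bp for all genes. Whether gene length bears on these shares was not tested.

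The 3 peptide genes nearest to an IDR summit without having one at the start were nlp-4, ins-13 and nlp-76. At nlp-4 a peak of signal 403 had its summit 792 bp downstream of the start, at the small nucleolar RNA gene F59C6.15 and the coding gene F59C6.18. At ins-13 a peak of signal 150 lay 1099 bp downstream, at the spliced leader gene sls-2.2. At nlp-76 the peak was the tRNA peak described above. All 3 summits, like that of flp-23, lay at starts of short non-coding RNA genes, that of nlp-4 also at a coding start. The summits nearest to ins-37 and ins-17, the next genes by distance, lay at coding starts, F08G2.5 and rps-1 among them, and at other non-coding starts. The share of all IDR summits at short non-coding RNA genes was not counted. Over the 138 peptide genes with no IDR summit at the start, the nearest IDR summit was at the start of another coding gene for 80. It was at a tRNA start for 11 and at no annotated start for 28, with piRNA genes left out of the search. The same counts were not made over all protein-coding genes, so they mark no trait of the peptide genes.

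The machinery that makes, releases and receives the peptides was scored from 5 lists of genes. Of 22 genes for peptide processing and dense core vesicles, 2 (9.09%, interval 2.53 to 27.8%) had an IDR summit, near the 6.75% of all protein-coding genes. A pooled region was present at 12 (54.5%, interval 34.7 to 73.1%), against 31.4%, and 10 of these had a region in both replicates as well. The 2 with an IDR summit were unc-108, which encodes the small GTPase RAB-2 of dense core vesicle maturation, and aex-5, which encodes a proprotein convertase. For unc-108 the highest signal in the start window was 143 in the IDR list and 86.5 (rank 312) in replicate 2. These summits were at -490 and -502 bp from a start. The highest signal in replicate 1, 54.3 (rank 2291), had its summit at -107 bp, so it is not a replicate 1 value of the IDR peak. For aex-5 the signal was 51.8 in replicate 1, 58.4 in replicate 2 and 109 in the IDR list. The aex-5 region ranked higher in replicate 2 (887) than in replicate 1 (2525).

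None of 107 genes for peptide receptors had an IDR summit, which allows a share of up to 3.47%. A pooled region was present at 17 of them (15.9%, interval 10.2 to 24.0%) and a region in both replicates at 4 (3.74%). The receptor genes were, like the peptide genes, below the 31.4% and 22.1% of all protein-coding genes. None of 8 other peptide genes and none of 11 caenacin genes, which encode antimicrobial peptides related to those of the nlp-29 group, had an IDR summit. A pooled region was present at 3 of the 8 (37.5%, interval 13.7 to 69.4%) and 4 of the 11 (36.4%, interval 15.2 to 64.6%). Both intervals span the 31.4% of all genes, and the caenacin genes cnc-3 and cnc-4 share 1 region. None of these genes had a region in both replicates.

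Of 14 genes of the insulin receptor pathway 1 (7.14%) had an IDR summit, near the 6.75% of all protein-coding genes. A pooled region was present at 6 (42.9%, interval 21.4 to 67.4%, which spans the 31.4% of all genes), and all 6 had a region in both replicates. The gene with the IDR summit was ftt-2, which encodes a 14-3-3 protein that binds the FOXO factor DAF-16. Its signal was 513 in replicate 1, 261 in replicate 2 and 776 in the IDR list, at ranks 4, 7 and 4. The other 5 pooled regions were at akt-2, par-5, daf-18, shc-1 and daf-16, with pooled signals of 94.3, 90.5, 57.1, 54.3 and 47.4. The receptor gene daf-2 had a region in replicate 2 alone, with a signal of 15.0. The lists are small, so their shares carry wide intervals.

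Words were searched within 50 bp of each summit on both strands. A RUNX core was found at 2 of the 26 best pooled summits of peptide genes (7.69%, interval 2.14 to 24.1%), those of flp-12 and nlp-58. The share was 9.70% over the best pooled summits of all genes and 14.8% over nuclear IDR peaks. The middle of the nearest core was 36 bp from the summit at flp-12 and 6 bp from it at nlp-58. GAGAGA, a word chosen because it was known to be frequent at the IDR summits of these data, was found at 1 of the 26 (3.85%, interval 0.682 to 18.9%), that of nlp-2, against 17.1% over all genes and 29.7% over IDR peaks. The start windows themselves, taken at the 5′-most start and 1201 bp long, held a RUNX core in 65 of 140 peptide genes (46.4%) and in 47.9% of all genes. They held GAGAGA in 58 peptide genes (41.4%, interval 33.6 to 49.7%) and in 50.9% of all genes. By class GAGAGA was present at 61.3% of flp, 36.6% of nlp and 34.2% of ins windows. The median G+C content of the windows was 35.3% for peptide genes and 35.0% for all genes. A match describes letters in a window and does not show a site.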

How the data were processed

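The labels name 2 biological replicates of 1 group, each with a single library. The authors deposited narrowPeak lists on ce10 and ce11, and the 4 lists on ce11 were used: one for each replicate, the pooled list and the IDR list. The signal of a region is the score the authors deposited, with no stated scale, and was used only to rank regions within a list. Per the labels, replicate and pooled lists keep background regions and a control is named for each. How reads were aligned, how peaks were called and at what IDR is not given in the sources used here, and read depth is unknown. The labels' antibody entry is rnt-1, while the sample notes name an antibody against GFP. In 1-based positions, summits were placed from 1000 bp upstream to 200 bp downstream of each of 29314 starts of 19973 protein-coding genes (Ensembl release 115, WBcel235). The placement was tested on simulated regions. Shares have 95% Wilson intervals. There is no contrast and so no test.

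Named genes were those with an IDR summit, the next 10 by pooled signal, the 3 nearest to and 3 farthest from an IDR summit, a set of well-studied genes, and up to 6 genes per pathway list with an IDR summit. Other genes named were chosen after their values were seen. The genes, lists, words and windows were chosen with earlier results of these data known. Alternatives were other windows, starts, thresholds and overlaps, and each replicate left out. Python 3.11.15, pandas 2.3.3, numpy 2.4.6 and scipy 1.17.1 were used.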

Additional observations from a re-analysis of the deposited data

How the results depend on the processing

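The count of 2 peptide genes with an IDR summit became 1 with a window of 500 bp to 100 bp (flp-23 alone, 602 bp being too far for ins-39), 1 with the 965 IDR peaks of highest signal (ins-39), 1 without summits at tRNA starts (ins-39, a setting chosen after the data were seen) and 5 by the nearest start (flp-23, ins-13, ins-39, nlp-4 and nlp-76). It was 2 to 3 under the other windows, starts and overlaps. An IDR list needs both replicates, so leaving out a replicate was replaced by the 1931 regions of highest signal of the other, which gave 2 peptide genes for each replicate. The pooled count of 26 became 16 with the window of 500 bp to 100 bp, 42 with 2000 bp to 500 bp and 12 with the 9896 pooled regions of highest signal. With a replicate left out, the list of the other replicate took the place of the pooled list, and the count ranged from 21 to 32. In all 18 alternatives of these 2 counts the peptide genes' share was below that of all genes. By class, the window of 500 bp to 100 bp gave 3 flp and 2 ins genes with a pooled region and 0 ins genes with an IDR summit. The window of 2000 bp to 500 bp gave 24 nlp and 10 ins genes with a pooled region and 1 nlp gene, nlp-76, with an IDR summit. In the list of a single replicate, 4 to 9 flp genes and 3 to 5 ins genes had a region. No paired analysis was possible because there is 1 group and no comparison between groups. The number of reads behind each region is unknown, so a missing region cannot be told apart from one below the reach of the depth.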
